A study of Drosophila melanogaster with 7 samples.

Results

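Hox genes encode homeodomain transcription factors that give the segments along the body of the fly their identity, and many stay active in the larval nervous system, epidermis and gut after the embryo has been patterned. They lie in the Antennapedia and bithorax complexes of chromosome arm 3R. Hox proteins bind DNA together with the homeodomain cofactors Extradenticle and Homothorax, and Polycomb and trithorax group proteins keep their genes silent or active through cell divisions. The genes looked for were *lab*, *pb*, *Dfd*, *Scr*, *Antp*, *Ubx*, *abd-A* and *Abd-B* and the cofactor genes *hth* and *exd*, found by the gene symbols of the array annotation. Of these 10 genes, 4 were analysed, out of 10844 genes in all: *pb*, *Dfd*, *Scr* and *Antp*, all Hox genes of the Antennapedia complex, through 5 probe sets, a probe set being the group of array features that measures a transcript. The other 6 genes, the bithorax complex genes, *lab* and both cofactors, were not analysed here.

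Whole first-instar larvae of *Drosophila melanogaster* mutant for *pof*, whose RNA-binding protein is found along chromosome 4, were compared with wild-type larvae. There were 4 mutant and 3 wild-type arrays, 7 in all. Each was hybridised with biotin-labelled target from polyA RNA of a pool of 400 larvae of mixed sex and mixed tissue, and the submitters call the pools biological replicates. The sources used here do not give the allele, the genetic background or the age in hours. In whole larvae, fewer cells that transcribe a Hox gene and less RNA in each such cell cannot be told apart.

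The values are log2 expression values, and the median over all probe sets was 6.01 to 6.06 on every array. The *Pof* probe set, near the lower end of the array's range, read 3.41 to 3.50 in the mutant and 3.64 to 3.90 in wild type, and its difference did not pass the threshold (limma, adjusted p = 0.323). The arrays also differed in how far the signal of control transcripts fell off toward the 5' end. Averaged over the controls for actin, GAPDH and eIF-4a, the log2 signal of the 3' probe set exceeded that of the 5' probe set by 3.22 and 3.95 on the mutant arrays of replicates 1 and 2. The excess was 4.32 on wild type replicate 1 and 1.92 to 2.19 on the remaining 4 arrays. Markers of larval tissues ran from a mean log2 signal of 3.77 for the neuronal gene *elav* to 13.3 for the muscle gene *Mlc2*.

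None of the 4 Hox genes passed the test of mutant against wild-type larvae, and in every probe set the readings of the groups overlapped. With limma's test over all 13966 probe sets, 0 of the 5 Hox probe sets had an adjusted p under 0.05, the threshold used throughout, against 0.0644% of all probe sets (9 in number). At an unadjusted p under 0.05 the count was again 0 of 5, against 5.43% of all probe sets. In 0 of 5 were the mutant and wild-type arrays fully separated, against 6% of all probe sets. The 95% confidence interval of the mutant over wild-type signal was narrowest for *Antp* 151696_at, at 0.898-fold to 1.09-fold. It was 0.819-fold to 1.04-fold for *pb*, 0.876-fold to 1.12-fold for *Scr*, 0.766-fold to 1.14-fold for *Dfd* and 0.946-fold to 1.36-fold for *Antp* 142814_at. The number of arrays limits this precision. These intervals are of signals within the range of array controls for mouse and yeast genes, described below. They do not bound the change in the transcripts.

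*proboscipedia* (*pb*), the Hox gene of the adult mouthparts, had the highest signal of the 4 genes' probe sets, although levels of different probe sets depend on their features and are not a measure of which transcript is more abundant. Probe set 143292_at read 5.33, 5.34, 5.18 and 5.21 on pof mutant replicates 1 to 4, and 5.49, 5.34 and 5.30 on wild type replicates 1 to 3. The highest reading was on wild type replicate 1, and mutant replicates 1 and 2 lay above wild type replicate 3, so the groups overlapped. The means were 5.26 ± 0.08 (SD, n = 4) and 5.38 ± 0.10 (SD, n = 3), and differed by -0.11 ± 0.07 (SE; limma, adjusted p = 0.962). Its 95% interval, -0.29 to 0.06, was mostly below 0.

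*Deformed* (*Dfd*) specifies the mandibular and maxillary segments of the head. Its probe set 143122_at read 3.87, 4.09, 4.01 and 3.88 on pof mutant replicates 1 to 4. On wild type replicates 1 to 3 it read 4.33, 4.04 and 3.82. Both the highest and the lowest of the 7 readings came from wild-type arrays, and the mutant readings lay between them. The log2 difference was -0.10 ± 0.12 (SE; limma, adjusted p = 0.963), with an interval of -0.38 to 0.19. Without wild type replicate 1 it was 0.032, so its sign rested on that array.

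*Sex combs reduced* (*Scr*) specifies the labial segment and the prothorax and is needed to form the salivary glands. Probe set 143336_at read 3.60, 3.79, 3.86 and 3.65 on pof mutant replicates 1 to 4. It read 3.74, 3.74 and 3.72 on wild type replicates 1 to 3, all within the mutant range. The wild-type SD of 0.01 rests partly on replicates 1 and 2 having the same value to all deposited digits. Such repeated values occurred in 2612 probe sets (18.7%), among them 2 of the 5 Hox probe sets. The groups differed in *Scr* by -0.01 ± 0.08 on the log2 scale (SE; limma, adjusted p = 0.987), with an interval of -0.19 to 0.17.

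*Antennapedia* (*Antp*) specifies thoracic segments and is known for turning antennae into legs when active in the head. It was the 1 gene with a pair of probe sets, and their highest readings were on different arrays. Probe set 142814_at read 3.76, 4.07, 3.76 and 3.71 on pof mutant replicates 1 to 4, and 3.68, 3.46 and 3.78 on wild type replicates 1 to 3. Mutant replicate 2 was the highest and wild type replicate 2 the lowest, while the remaining 5 arrays lay between 3.68 and 3.78. The log2 difference was 0.18 ± 0.11 (SE; limma, adjusted p = 0.962), with an interval of -0.08 to 0.45. It was the only one of the 5 above 0. Weights for array quality are the 1 setting under which it passed the threshold, at 0.31 (limma, adjusted p = 0.0381), with weights whose estimate did not converge. In the other settings its adjusted p by limma was 0.437 to 1.00.

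Probe set 151696_at of *Antp* read 3.95, 3.96, 3.93 and 3.93 on pof mutant replicates 1 to 4, and 4.04, 3.95 and 3.89 on wild type replicates 1 to 3. It was the steadiest Hox probe set, with readings 0.16 apart at most over the 7 arrays and a residual SD at the 6.71 percentile of all probe sets. All mutant readings lay within the wild-type range. The log2 difference was -0.01 ± 0.06 (SE; limma, adjusted p = 0.983), with an interval of -0.16 to 0.13. The sources used here do not say which part of the *Antp* transcripts each probe set matches.

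**Figure D1:**
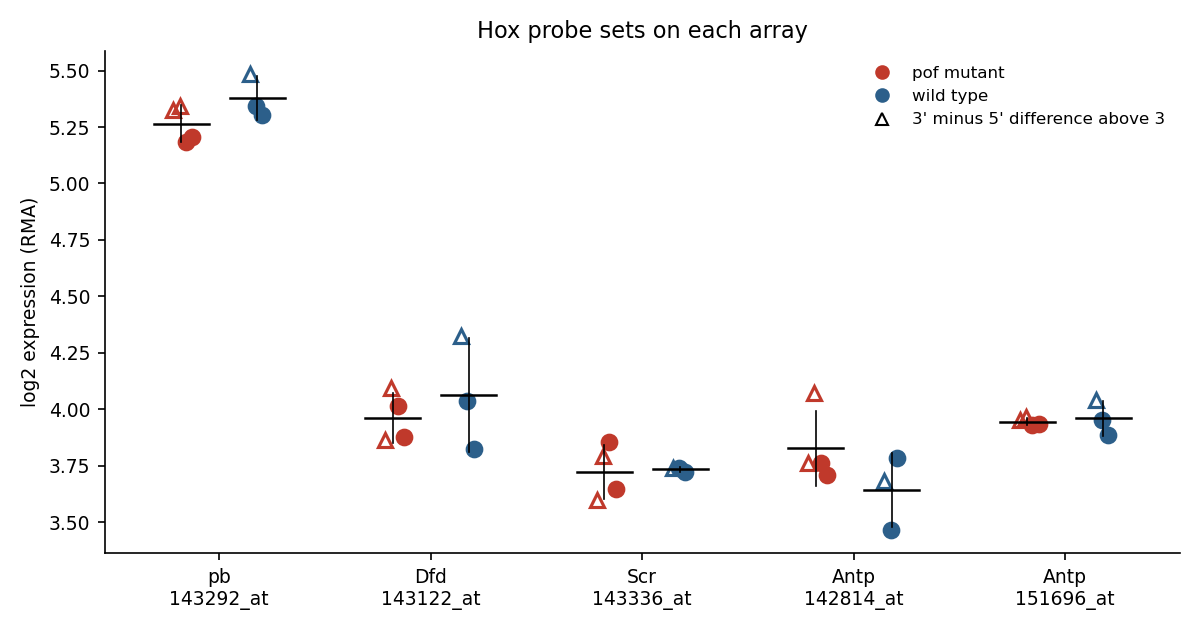
Log2 expression (RMA, vertical axis) of the 5 Hox probe sets on each array, in pof mutant (red, n = 4) and wild type (blue, n = 3), with horizontal lines for group means and vertical lines for ± SD. Open triangles are the 3 arrays with a 3' minus 5' control difference above 3, and in every probe set the groups overlap.

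All 5 Hox probe sets gave weak signals. Their means over the 7 arrays ran from 3.73 for *Scr* to 5.31 for *pb*, at the 6.79 to 33.5 percentiles of the 13966 probe sets. As a measure of signal without a fly transcript, 8 array controls for mouse and yeast genes had means of 3.32 to 5.71, with a median of 3.79. The mean of *pb* lay above 7 of the 8, those of *Dfd* and of *Antp* 151696_at above 5, and those of *Scr* and *Antp* 142814_at above 3. The Hox signals fell within the range of these controls, and the values do not show whether the transcripts were detected.

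**Figure D2:**
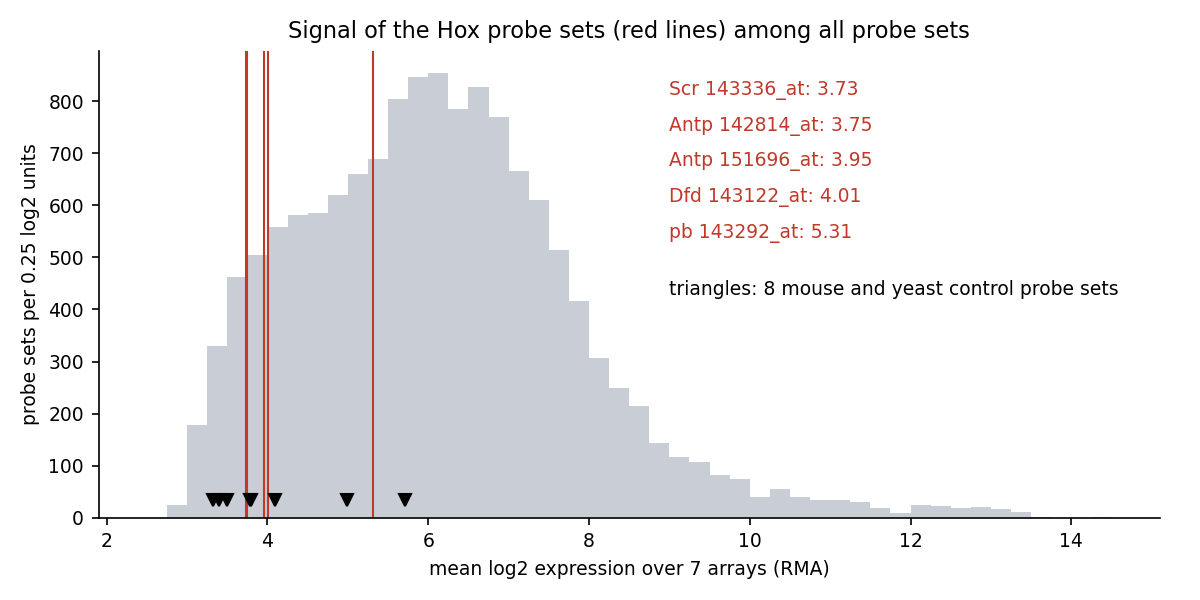
Distribution of the mean log2 expression over 7 arrays of all 13966 probe sets (grey bars, number per bin of 0.25), with the 5 Hox probe sets as red lines and 8 mouse and yeast control probe sets as black triangles. The Hox probe sets, at 3.73 to 5.31, lie within the span of the controls, 3.32 to 5.71.

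The Hox signals were also compared with that 3' excess of the controls, called the 3' minus 5' difference, in a limma fit with the group as the other term. Per unit of that difference, *Dfd* was higher by 0.13 ± 0.05 (SE; adjusted p = 0.0738) and *pb* by 0.08 ± 0.03 (adjusted p = 0.0628). *Antp* had slopes of 0.07 ± 0.05 (142814_at; adjusted p = 0.317) and 0.04 ± 0.03 (151696_at; adjusted p = 0.3), and *Scr* one of -0.00018 ± 0.04 (adjusted p = 0.998). By limma 0 of 5 passed the threshold, against 28.1% of all probe sets, and 2 of 5 had an unadjusted p under 0.05, against 43% of all. The slope of *Dfd* rested on single arrays. It passed without pof mutant replicate 3, at 0.15 ± 0.04 (limma, adjusted p = 0.0496), and was 0.06 ± 0.07 without wild type replicate 1 (adjusted p = 0.711). After another quantile normalization it was 0.08 ± 0.04 (limma, adjusted p = 0.188), and that of *Antp* 151696_at turned to -0.012. The slope of *Scr* was then -0.06 ± 0.04 (limma, adjusted p = 0.27). With that normalization the count at an unadjusted p under 0.05 fell from 2 to 0 of 5, as it did without wild type replicate 1. Wild type replicate 1, which had the largest 3' minus 5' difference, gave the highest of the 7 readings of *pb*, *Dfd* and *Antp* 151696_at. That array also gave the highest reading of the mouse and yeast controls MurFAS (3.49), MurIL2 (5.91), MurIL4 (3.64) and RIP1 (4.36), which have no fly transcript. The controls MurIL10, WBP1, YEL018w and URA3 were highest on mutant arrays.

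With the 3' minus 5' difference as a covariate the group differences kept their signs. The difference was -0.12 ± 0.05 for *pb*, whose adjusted p by limma was 0.308 (unadjusted p = 0.0404), and 0.18 ± 0.10 for *Antp* 142814_at, with an adjusted p of 0.437.

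**Figure D3:**
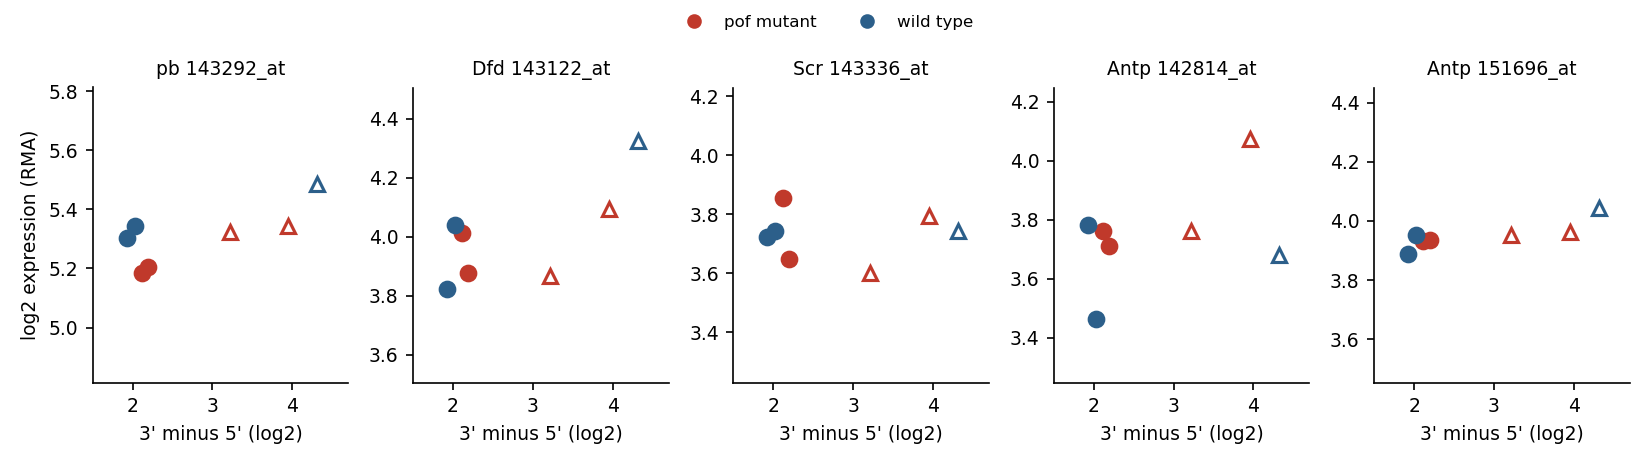
Log2 expression (RMA, vertical axis, spanning 1 unit in each panel) of the 5 Hox probe sets against the 3' minus 5' log2 difference of the control transcripts (horizontal axis) on each array, pof mutant in red and wild type in blue, open triangles above 3. Wild type replicate 1, at 4.32, has the highest reading of *pb*, *Dfd* and *Antp* 151696_at, and also of some mouse and yeast controls (not drawn).

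The Antennapedia complex also holds homeobox genes that have no homeotic role in the fly: *zen2*, *zen* and *bcd* lie between *pb* and *Dfd*, and *ftz* between *Scr* and *Antp*, in the Release 6 annotation. All 4 were measured, and 0 of 4 passed limma's threshold or had an unadjusted p under 0.05. *zen*, which acts in the dorsal embryo, had a log2 difference of 0.09 ± 0.11 (SE), *zen2* one of -0.08 ± 0.09, the maternal anterior determinant *bcd* one of -0.05 ± 0.11, and the pair-rule gene *ftz* one of -0.02 ± 0.09 (limma, adjusted p of at least 0.962). Readings of *ftz* were 7.21 to 7.26 in the mutant and 7.12 to 7.47 in wild type, the highest again on wild type replicate 1.

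**Figure D4:**
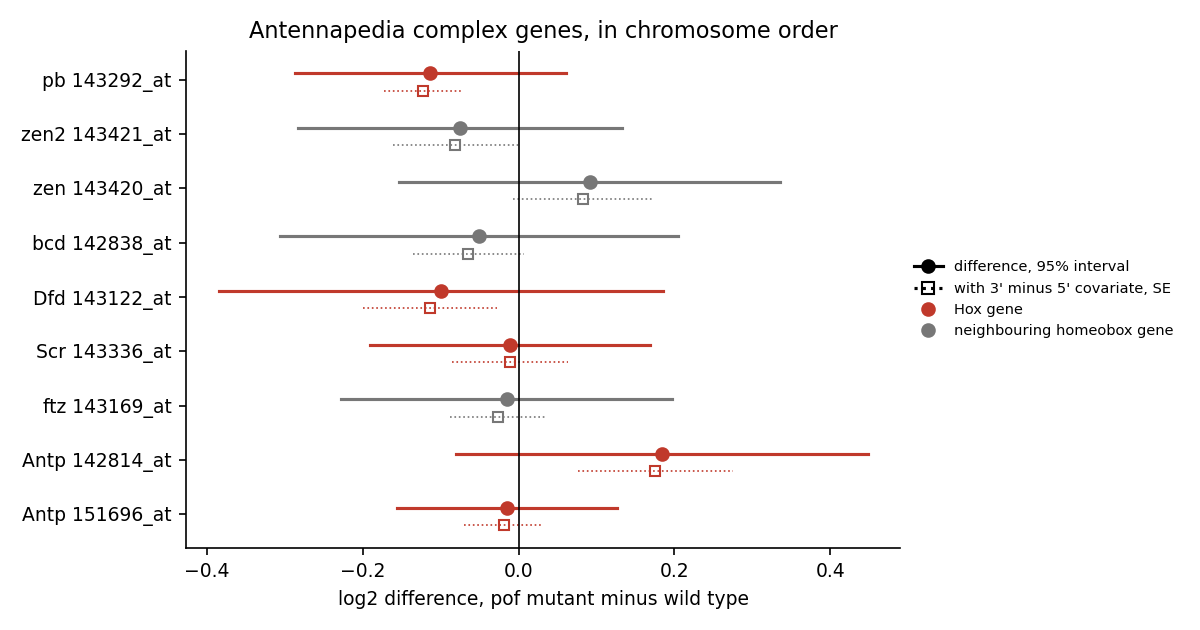
Log2 difference, pof mutant minus wild type (horizontal axis), of the probe sets of 8 Antennapedia complex genes in their order on 3R, Hox genes in red and neighbouring homeobox genes in grey. Filled points have 95% intervals, open squares are fits with the 3' minus 5' covariate with dotted lines for ± SE, and every 95% interval includes 0.

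Genes that work with the Hox genes or under them gave no call either in the fit without array weights. A gene with several probe sets is represented by that of highest mean signal. Over all 10844 genes the median log2 difference was -0.02. Of 8 measured textbook targets of Hox proteins, 0 passed limma's threshold and 0 had an unadjusted p under 0.05, with a median of -0.09. Their median level per array, each gene centred on its own mean, ran from -0.12 to 0.0011 in the mutant. In wild type it ran from 0.03 to 0.13, and this separation in a picked list was not tested. The mean was lower in the mutant in 7 of the 8 targets, against 58% of all genes (6285 of 10844). The exception, *betaTub60D*, was at 0.10 ± 0.17 (SE) by its probe set of highest mean signal and at -0.07 ± 0.15 by its other. The POU-domain gene *vvl* had the smallest p, at -0.19 ± 0.09 (SE; adjusted p = 0.933), with readings of 6.97 to 7.13 in the mutant and 7.12 to 7.43 in wild type. *salm* (-0.14 ± 0.08), the limb gene *Dll* (-0.08 ± 0.06) and the cell adhesion gene *Con* (-0.17 ± 0.14) followed, and *fkh*, a target of *Scr* in the salivary gland, was at -0.06 ± 0.06 (limma, adjusted p = 0.962 for all of these). The mean signals of the targets *Con* (3.58), *vg* (3.53) and *dpp* (3.95) were as low as those of the Hox probe sets. *Con* also had a slope of -0.19 per unit of the 3' minus 5' difference (limma, adjusted p = 0.0113). Of 10 measured region genes that act beside the Hox genes in head, trunk or tail, 0 passed and 0 had an unadjusted p under 0.05, with a median of 0.01. The smallest p belonged to the head gene *cnc* (-0.14 ± 0.09), with *ems* (0.13 ± 0.09), *oc* (-0.16 ± 0.12) and *tio* (-0.09 ± 0.07) next, and *tsh*, a trunk gene, stood at 0.12 ± 0.10 (limma, adjusted p = 0.962). Of 7 measured pair-rule and segment polarity genes 0 passed and 0 had an unadjusted p under 0.05, with differences from -0.07 (*en*) to 0.14 (*odd*).

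Chromatin genes that keep Hox genes silent or active gave no call in the fit without array weights. Of 9 measured Polycomb group genes 0 passed limma's threshold and 0 had an unadjusted p under 0.05, with a median of 0.03. *Psc* (0.19 ± 0.08, SE) had the smallest p (adjusted p = 0.933), and *Pc* itself was at 0.03 ± 0.09. Of 8 measured trithorax group genes 0 passed and 2 had an unadjusted p under 0.05, against 5.73% of all genes, with a median of -0.0046. *ash2*, a subunit of histone H3 lysine methyltransferase complexes, read 6.78 to 6.98 in the mutant and 6.44 to 6.72 in wild type, a difference of 0.30 ± 0.09 (SE; limma, adjusted p = 0.573). *Snr1*, a subunit of the Brahma remodelling complex, read 7.36 to 7.44 in the mutant and 7.49 to 7.62 in wild type, a difference of -0.16 ± 0.06 (limma, adjusted p = 0.867). These were the 2 genes of the list whose groups did not overlap, against 679 of all 10844 genes. *trx* varied most, from 5.62 on wild type replicate 1 to 7.70 on wild type replicate 3, and its slope per unit of the 3' minus 5' difference was -0.57 (limma, adjusted p = 0.0147).

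Markers of the tissues in which Hox genes act gave the following values, whose part in the Hox values was not tested. By limma 0 passed the threshold in any of these 5 lists. The lists were chosen with earlier results of these data known, so their counts describe picked genes and are not a test. Over all genes, 5.73% (621 of 10844) had an unadjusted p under 0.05 by limma. Of 5 neuron markers 0 had such a p, with a median difference of -0.04. Their median level per array, each gene centred on its own mean, ran from -0.08 to 0.05 in the mutant and from -0.14 to 0.03 in wild type, and the defining marker *elav* had a mean signal of 3.77, as low as the Hox probe sets. Of 5 muscle markers 0 had such a p, with a median difference of 0.18. Their median level ran from -0.13 to 0.26 in the mutant and from -0.91 to 0.52 in wild type. For the 3' minus 5' difference 4 of 5 passed, against 28.1% of all genes (3050 of 10844).

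Of 7 epidermis and trachea markers 3 had an unadjusted p under 0.05, with a median difference of -0.18. In the mutant 5 of 7 were lower, against 58% of all genes. The cuticle protein gene *Cpr49Ac* was at 0.44 ± 0.13 (SE), while *kkv* was at -0.21 ± 0.07 and *Tb* at -0.27 ± 0.11. Of 7 midgut markers 4 had such a p, with a median of 0.53 and 6 of 7 higher, against 4559 of all 10844 genes. The trypsin gene *betaTry* was at 1.37 ± 0.22 (limma, adjusted p = 0.156), and *Jon25Bi*, another protease gene, at -0.48 ± 0.12. Between them by p were *LManI* (0.53 ± 0.10) and *Jon44E* (0.65 ± 0.14). The midgut median level ran from -0.23 to 0.46 in the mutant and from -0.43 to -0.08 in wild type, and that of epidermis and trachea from -0.06 to 0.04 and from 0.04 to 0.18. Of 8 fat body markers 4 had such a p. The mutant mean was higher for *mdy* (0.57 ± 0.10) and *FASN1* (0.37 ± 0.09). It was lower for *fon* (-0.37 ± 0.07) and *Tps1* (-0.52 ± 0.16). The value of *mdy* came from its probe set of highest mean signal. Its other probe set, with a mean signal of 5.39, was at 0.015 ± 0.15, and there the groups overlapped. The rest of the fat body list was *apolpp* (0.29 ± 0.15), *Lsp2* (0.05 ± 0.08), *Fbp1* (-0.13 ± 0.13) and *Yp1* (0.09 ± 0.07). Whether each of the 8 marks the fat body of first-instar larvae was not tested. The median difference of the list was 0.07, with levels of -0.05 to 0.09 in the mutant and -0.09 to -0.04 in wild type.

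**Figure D5:**
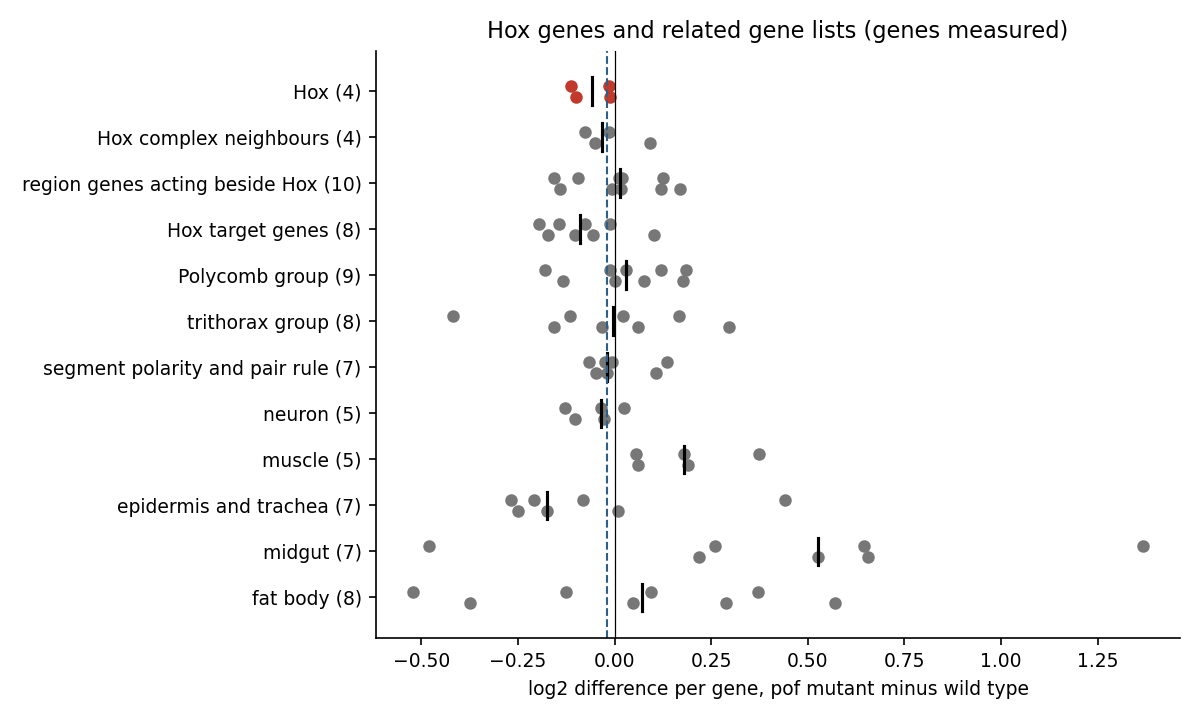
Log2 difference per gene, pof mutant minus wild type (horizontal axis), for the Hox genes (red) and 11 related or tissue marker lists (grey), 1 point per gene, with the number of genes measured in brackets. Black bars are list medians and the dashed blue line is the median of all genes, -0.02. The 4 Hox genes lie between -0.11 and -0.01, with *Antp* drawn from 151696_at; its other probe set, 142814_at, was at 0.18.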

How the data were processed

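The deposited values are log2 expression values. The submitters' processing notes give RMA as the authors' method, without a version; it includes background correction, quantile normalization and a summary over the features of a probe set. No further normalization or level filter was applied, and no detection calls were used. Groups and replicate numbers come from the sample titles. Of 14010 probe sets, 44 are array controls. Names come from the platform annotation, with symbols updated by gene identifier from RefSeq (Release 6), where 12394 of 12443 probe sets with 1 gene matched.

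The comparison of mutant with wild type used limma (version 3.58.1, R 4.3.3; lmFit, then eBayes; two-sided), with Benjamini-Hochberg adjustment over 13966 probe sets. Standard errors and 95% intervals are limma's. The procedure was tested on simulated data with independent noise in each probe set and group differences larger than those of the Hox probe sets. The simulation held no 3' minus 5' difference between arrays, so it does not show how the procedure deals with that. All probe sets of the members are given. From the other lists, genes were named among the 4 with the smallest p, and some of those 4 were left out. Other genes were chosen after their values were seen. Genes most alike in pattern were to be named for members with a mean of at least 7, and 0 reached it. Members and lists were chosen with earlier results of these data known. Alternatives were another quantile normalization, the 3' minus 5' covariate, a replicate block, eBayes with trend and robust, array weights, a level of at least 6 and leaving out arrays. Python 3.11.15 and matplotlib 3.10.9 drew the figures.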

Additional observations from a re-analysis of the deposited data

Results flagged for a closer look

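Among the 4 mutant arrays, 49 sets of values were examined with Dixon's test for a value standing apart, at the 95% level. It found 3, where chance gives about 1 in 20 sets (2.45). *Antp* 142814_at read 4.07 on pof mutant replicate 2, where the other mutant arrays had a median of 3.76. *kkv*, a chitin synthase gene, read 6.81 on pof mutant replicate 4, against 6.63, and *Appl*, a neuronal gene, 7.47 on pof mutant replicate 1, against 7.56. Groups of 3 were not examined.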

How the results depend on the processing

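Of 70 values of the 5 Hox probe sets under alternatives, 58 kept their sign and side of the threshold, 11 turned sign without passing it and 1 passed it. At a level of at least 6 no Hox probe set was left. The value that passed was *Antp* 142814_at with limma's default array weights (0.31, so 1 of 5 passed). That estimate stopped before it converged and gave wild type replicate 2 a weight of 17.1. With weights estimated gene by gene, added after seeing the data, the value was 0.23 and did not pass (limma, adjusted p = 0.48). The sign turned to 0.027 for *Antp* 151696_at and 0.026 for *Scr* after another quantile normalization, to 0.0050 for *Antp* 151696_at with weights gene by gene, and to 0.014 for *Scr* with the replicate block. Without the 3 arrays of large 3' minus 5' difference, added after seeing the data, *Antp* 151696_at was 0.015, *Dfd* 0.015 and *Scr* 0.020. With each array left out in turn, *Antp* 151696_at ran from -0.051 to 0.027, *Dfd* from -0.22 to 0.032, *Scr* from -0.055 to 0.030, *pb* from -0.15 to -0.06 and *Antp* 142814_at from 0.09 to 0.25. The count of Hox probe sets passing for the 3' minus 5' difference was 0 to 1 (1 without pof mutant replicate 3).

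The count over all probe sets was 86 with the 3' minus 5' covariate, 2 with the replicate block, 1200 with the default weights, 76 with weights gene by gene and 0 without the 3 arrays, so that the Hox count of 0 there says nothing of stability. It ran from 0 to 34 with arrays left out (34 when wild type replicate 1 was left out, 2 for wild type replicate 2, 0 for pof mutant replicate 1, and 5 each for pof mutant replicates 2 and 3). Of the 78 genes of the related lists, 3 passed with the covariate (*betaTry*, *Jon44E* and *Tps1*), 13 with the default weights and 4 with weights gene by gene. The 13 held the region gene *cad*, the Polycomb group gene *Psc* and the trithorax group genes *ash2* and *Snr1*. The rest of the 13, and all of the 4, were tissue markers. Deviations of same-numbered arrays from their group means correlated at 0.25, -0.57 and 0.56 over all probe sets. Those of unlike-numbered arrays correlated at -0.62 to 0.69, so these values can neither show nor exclude pairing. The numbers were not taken to pair the samples. The number of arrays and signals near those of the mouse and yeast controls limit all Hox values.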
